A study of Sus scrofa with 4 samples.

Results

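The nuclear pore and nuclear transport genes are described here in mature porcine oocytes with and without Cu exposure. The rule used the gene symbol alone, but it was chosen with earlier results of these data known. It took deposited rows with values whose symbol begins with NUP and a digit (nucleoporins) or with KPNA or KPNB (importins alpha and beta). It also took those beginning with IPO or TNPO (further importins of the beta family) or XPO (exportins). There were 45 such genes among 16050. Of 46 rows with such symbols only NUP58, listed as a long non-coding RNA, holds no values. The libraries came from female metaphase II oocytes matured in vitro in their cumulus-oocyte complexes from slaughterhouse ovaries, so the animals behind each library are not known. There were 2 Control libraries (replicates 1 and 2, maturation medium without added Cu) and 2 Cu libraries (replicates 1 and 3, medium with copper sulfate at the 25 μg/mL chosen for the study's later experiments), all cultured up to 44 h. The oocytes of a library, 3 per the methods, were lysed and amplified together by Smart-seq2, which copies polyadenylated mRNA from very small samples. Nothing in the labels says whether the replicates were separate maturation cultures, so the spread between them may be partly technical.

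The groups are those of the sample labels, and the direction of every difference below rests on them. ATP5PF, NDUFB3, NDUFAB1 and NDUFA13, genes of the respiratory chain and ATP synthase that were also measured by RT-PCR, were all higher in both libraries labelled Cu than in both labelled Control. ATP5PF, for example, had 119 and 85.97 FPKM in Control 1 and 2, against 309 FPKM in Cu 1 and 771 FPKM in Cu 3. The study gives these genes as lower after Cu exposure, both in its sequencing and in its RT-PCR, which is the opposite direction. Whether the labels or the stated direction are exchanged cannot be told apart here, and if the labels are, the sign of each fold change turns. Cu and Control therefore mean the libraries so labelled.

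Molecules enter and leave the nucleus through nuclear pore complexes, ring-shaped assemblies of nucleoporins set into the nuclear envelope. Importins carry proteins inward and exportins carry proteins and RNA outward, and both read their direction from the small GTPase Ran. In a metaphase II oocyte the envelope and its pores have been taken apart, while importins and Ran are known to control spindle assembly around the chromosomes. The stored mRNAs and proteins of the pore also serve the zygote, which has to build pronuclei.

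The libraries were oocyte-like by their markers. All 14 oocyte genes listed (among them ZP2, ZP3, GDF9 and BMP15) had values, with 13 or 14 of them at 1 FPKM or more in a library. FPKM counts sequenced fragments relative to both the length of the transcript and the size of the library. Of 16 listed cumulus and granulosa cell genes 12 had values, which summed to between 1.09 and 2.81 FPKM in a library, and AMH was listed at 0 in all 4. The reads behind an FPKM are not kept, so the depth is unknown. Between 7923 and 8162 genes reached 1 FPKM in the Control libraries and Cu 3, and 9364 did in Cu 1. Over the 8541 tested genes Cu 1 stood apart from the rest, with Pearson correlations of log2(FPKM + 1) of 0.918 to 0.923 against 0.959 to 0.976 among the other libraries. Over the 36 tested nuclear pore and transport genes the correlations of Cu 1 were 0.962 to 0.973 and those among the others 0.987 to 0.990. These are correlations across genes and carry no test. The results below are therefore given with and without Cu 1 where it matters.

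Levels in the oocyte spanned a wide range even between proteins that sit in the same pore subcomplex. The 45 genes together held 0.571% to 0.756% of all FPKM in a library, and KPNA7, KPNA2 and NUP35 alone made up 56.3% to 69.0% of that. KPNA7, the importin alpha known for its restriction to oocytes and early embryos (identifier 100302505, chr3:6167382-6201282 in Sscrofa11.1), had 1338 and 1847 FPKM in Control 1 and 2 (pairs of Control values are in this order throughout). Its Control mean was above that of 99.7% of the 16050 genes. KPNA2, an importin alpha of dividing cells (identifier 397218, chr12:14283092-14296749), followed with 432 and 581 FPKM, and NUP35, a protein of the inner ring that bends into the pore membrane (identifier 102166970, chr15:88587753-88616310), with 421 and 568 FPKM. The Control ranges of KPNA7 and KPNA2 did not overlap, whereas those of KPNA2 and NUP35 did. NUP37 and NUP214 came next with overlapping ranges, and below them stood NUP88, KPNA3, NUP54, NUP107, NUP85, TNPO1 and NUP133, whose neighbours in the order all overlapped. Members with at least 100 FPKM numbered 8 and 9 in the Control pair, 9 in Cu 1 but 6 in Cu 3.

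**Figure D1:**
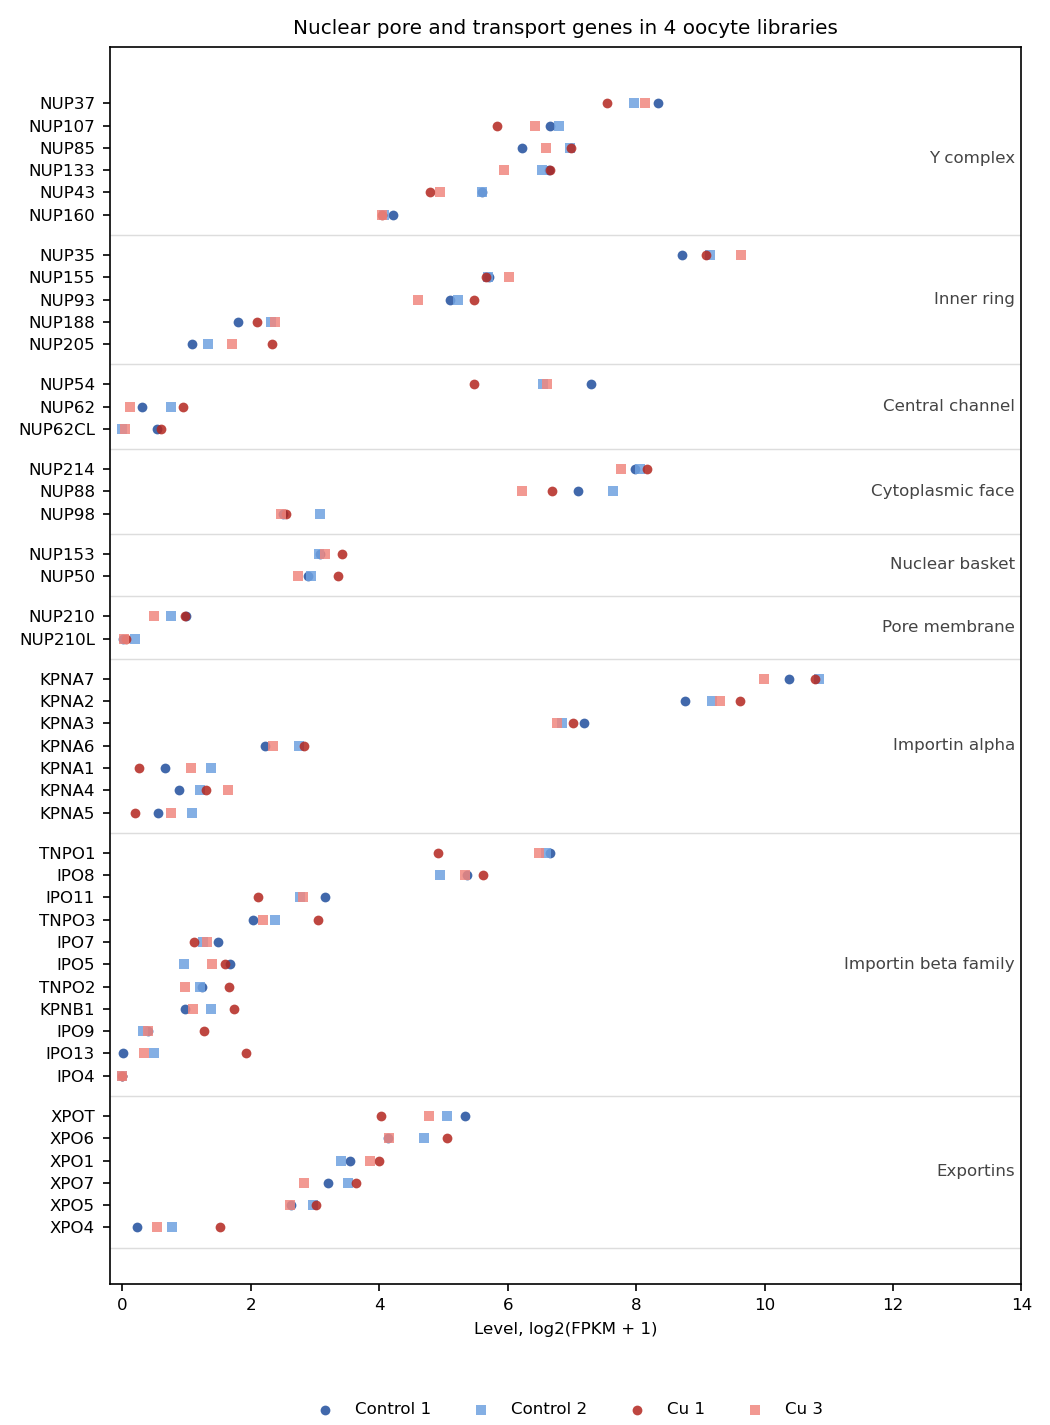
Level of each of the 45 genes in each library as log2(FPKM + 1), with circles for replicate 1 and squares for Control 2 and Cu 3, blue for Control and red for Cu, grouped by role and ordered by Control mean. KPNA7 is at the right end, with 1338 and 1847 FPKM in the Control libraries, while IPO4 lies at 0 in all 4.

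At the other end, 9 members did not reach 1 FPKM in at least 2 libraries and were not tested. These were NUP62, the FG-repeat protein of the central channel, its relative NUP62CL, the membrane nucleoporins NUP210 and NUP210L, KPNA5, XPO4, IPO4, IPO9 and IPO13. NUP62 had 0.24 and 0.68 FPKM in the Control pair, against 0.92 FPKM in Cu 1 and 0.09 FPKM in Cu 3, while NUP54, its partner in the channel, had 156 and 93.0 FPKM in Control 1 and 2. IPO4 was listed at 0 in all 4 libraries. IPO13, a carrier that works in both directions, had 0.01 and 0.41 FPKM in the Control pair, against 2.8 FPKM in Cu 1 and 0.26 FPKM in Cu 3, so its high value was that of Cu 1 alone, as it was for XPO4 (1.88 FPKM) and IPO9 (1.41 FPKM). KPNB1, the importin beta that pairs with every importin alpha, was tested but stood at 0.96 and 1.6 FPKM in the Control pair, against 2.32 FPKM in Cu 1 and 1.13 FPKM in Cu 3, close to the median of all genes with values (its Control mean was above 52.4% of them). KPNB1, XPO4, IPO9 and IPO13 are singled out here after their values were seen. Every tested member had 1 FPKM or more in at least 1 library of each group, so none was tested through a single group.

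To examine whether these mRNAs differ with Cu exposure, the libraries labelled Cu and Control were compared with limma's moderated test on log2(FPKM + 1), with adjustment over all 8541 tested genes. At an adjusted p limit of 0.05 there were 0 calls, among the members as in the whole table. The smallest adjusted p of a member was 0.656, and 599 genes in all, 7.01%, had an unadjusted p of 0.05 or less. Among the 36 tested members there was 1 such gene, NUP88, which was lower in Cu, the direction of 1.43% of all tested genes, and 0 members were on the higher side, where 5.58% of all genes were. The smallest two-sided p that exact permutation of 4 libraries in pairs allows is 0.333. FPKM are shares of a library, and in 3 pooled oocytes fewer cells with an mRNA and less of it per cell cannot be told apart.

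As a set, the members sat below the middle of the transcriptome. Their log2 fold changes, Cu minus Control, ran from -0.93 to 0.82 with a median of -0.02, with 18 higher and 18 lower, whereas all tested genes had a median of 0.16 and 64.3% of them were higher. Relative to that median, 23 members were below and 13 above. The groups did not overlap in 11 members (38.8% of all tested genes), with the Cu pair on the higher side in 5 (25.4% of all genes) and on the lower side in 6 (13.4%). After quantile normalization these were 1 higher and 13 lower (15.9% and 23.6% of all genes), and after median-of-ratios scaling 3 higher and 11 lower (19.2% and 19.8%). The signs also depended on the scaling. There were 10 higher and 26 lower after quantile normalization and 13 and 23 after median-of-ratios scaling, under which the median of all genes moved to -0.07 and 0.01, and the members' median stayed 0.16 and 0.20 below it. Without Cu 1 the members' median was -0.13 and that of all genes 0.0023, and without Cu 3 they were 0.16 and 0.31. By the authors' means, which include a further library per group, they were 0.0084 and 0.11. In 4 of the 11 members with separate groups the authors' means gave a fold change over 1.5 times smaller or of the other sign, as they did in 1750 of the 3313 such genes of the whole table. The members therefore lay under the median of all genes in each of these settings, and no test was made of that distance.

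The distance was also seen at each level of expression. Among the 13 members with a mean of 50 FPKM or more over the 4 libraries, 9 were lower and the median was -0.23, against 0.03 for the 1462 genes at that level. Among the 7 between 10 and 50 FPKM the median was -0.10, against 0.10 for 2556 genes. Among the 16 below 10 FPKM it was 0.11, against 0.22 for 4523 genes. Without Cu 1 the medians of the members in these classes were -0.24, -0.27 and -0.07, against 0.0094, -0.04 and 0.02 for all genes. In the same order, the Cu pair lay below the Control pair in 3, 3 and 0 members, beside 23.1%, 16.4% and 8.62% of all genes. It lay above in 1, 1 and 3 members, beside 25.6%, 21.6% and 27.4%. In 24 of the 36 members (66.7%) the highest library was less than 2 times the lowest, compared with 44.8% of all tested genes, whose median Control level was 7.62 FPKM beside 18.7 FPKM for the tested members.

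**Figure D2:**
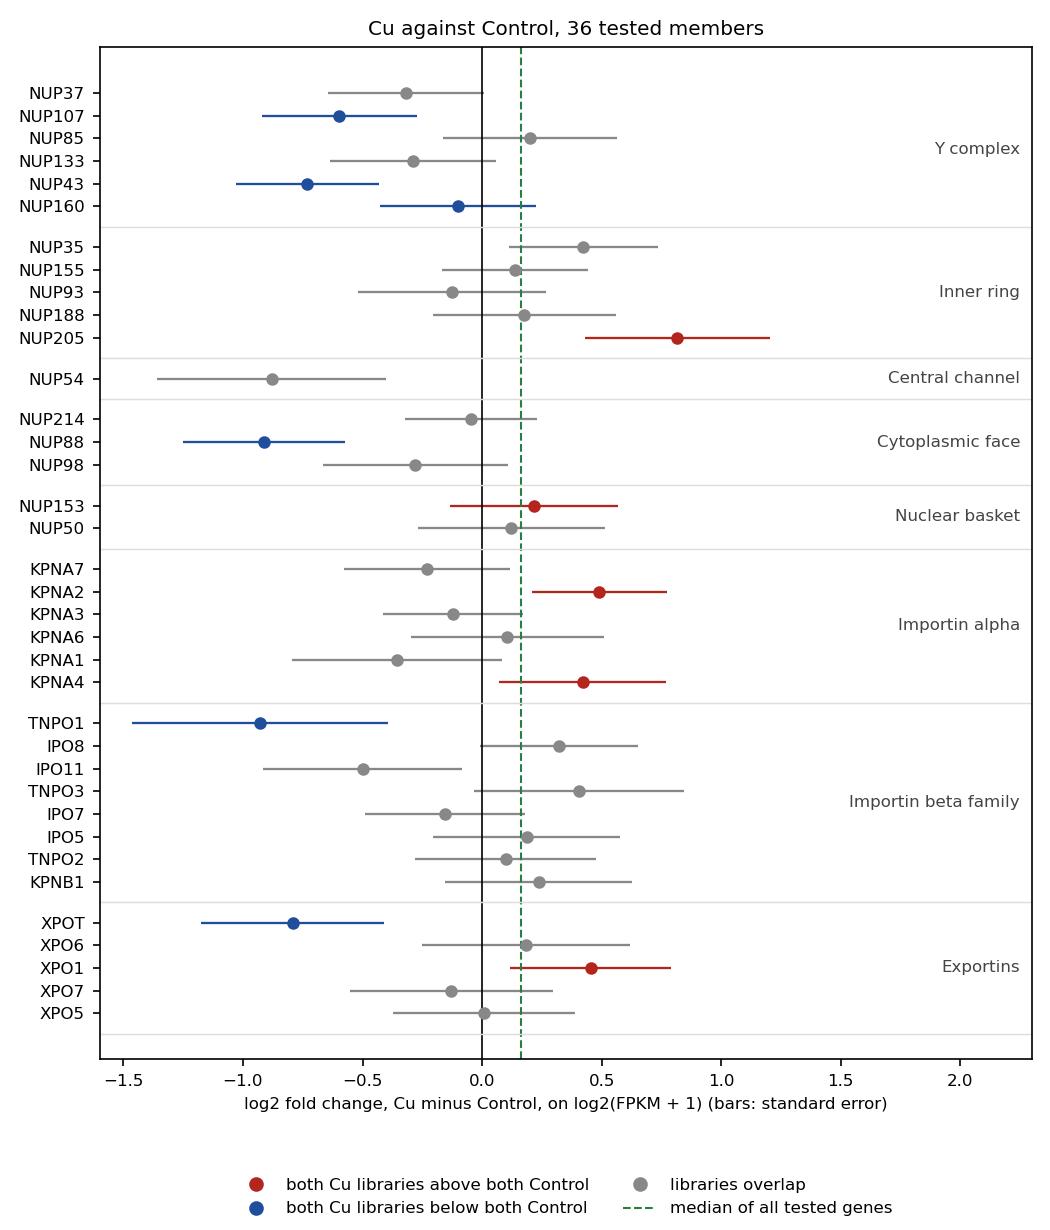
Log2 fold change (Cu minus Control, on log2(FPKM + 1)) of the 36 tested genes with limma's standard error, grouped by role, red where the Cu pair lay above the Control pair, blue where it lay below, and grey where they overlapped. The dashed line is the median of all tested genes, 0.16, and the points range from TNPO1 at -0.93 to NUP205 at 0.82.

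NUP88 and NUP214 are part of the cytoplasmic face of the pore, where exported mRNA and proteins are released. NUP88 (identifier 414429, chr12:51562455-51603095) had 135 and 199 FPKM in the Control pair, against 102 FPKM in Cu 1 and 73.8 FPKM in Cu 3. Both Cu libraries were below both Control libraries, with a fold change of -0.91 on the log2 scale (standard error, SE, 0.34, 95% interval -1.74 to -0.08, unadjusted p = 0.036 and adjusted p = 0.656 in limma's test). Leaving out each library in turn gave -1.19 to -0.63, and without the variance trend the unadjusted p was 0.054. By the authors' means, 139 FPKM in Control and 99.3 FPKM in Cu, the value was -0.48, closer to 0 than with any library left out. If each mean is of 3 libraries, the further Control library was below the further Cu library. NUP214 (identifier 100155564, chr1:271103838-271210292) had 252 and 265 FPKM in the Control pair, against 287 FPKM in Cu 1 and 218 FPKM in Cu 3, giving a log2 fold change of -0.05 (95% interval -0.73 to 0.63), and it was at 0.15 without Cu 3 and at 0.01 by the authors' means. The ratio of NUP214 to NUP88 does not change when a library is multiplied by a constant factor, though quantile normalization can change it. It was 1.86 and 1.33 in Control and 2.81 and 2.95 in Cu 1 and 3. The authors' group means gave 1.64 and 2.31, but they include these same libraries. If each mean is of 3 libraries, the ratio in the further libraries was lower in Cu than in Control, the opposite order. This ratio was chosen after the values were seen. NUP98, an FG nucleoporin found on both faces that binds the export factor RAE1, had 4.68 and 7.41 FPKM in the Control pair, against 4.83 FPKM in Cu 1 and 4.56 FPKM in Cu 3, so that the libraries overlapped.

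The Y complex is the outer scaffold of the pore and moves in part to the kinetochores in dividing cells. Of its 6 members, 5 had a log2 fold change below 0, as also under quantile normalization and median-of-ratios scaling. In 3 of them, NUP43, NUP107 and NUP160, both Cu libraries were below both Control libraries, as in 13.4% of all tested genes. That share was 16.4% of genes between 10 and 50 FPKM and 23.1% of those at 50 FPKM or more. Without Cu 3 the split was 4 below and 2 above 0, and after median-of-ratios scaling the NUP160 libraries overlapped. NUP43 (identifier 100154567, chr1:16249493-16267636) had 47.3 and 47.6 FPKM in the Control pair, against 26.7 FPKM in Cu 1 and 29.8 FPKM in Cu 3. The libraries of each group were close to each other, and the log2 fold change was -0.73 (SE 0.30, 95% interval -1.47 to 0.0048, unadjusted p = 0.051 and adjusted p = 0.708 in limma's test). Leaving out each library gave -0.81 to -0.66, and the authors' means, 47.8 FPKM in Control and 32.6 FPKM in Cu, gave -0.54. With each mean taken as of 3 libraries, the further Cu library was above Cu 1 and Cu 3 but below the Control libraries. Under quantile normalization and median-of-ratios scaling the unadjusted p was 0.041 and 0.035. NUP107, a core member of the scaffold outside the rule for named genes, had 99.7 and 110 FPKM in the Control pair. Against these stood 56.1 FPKM in Cu 1 and 84.6 FPKM in Cu 3, giving a log2 fold change of -0.60 (adjusted p = 0.728 in limma's test). It was -0.29 by the authors' means, 102 FPKM in Control and 82.8 FPKM in Cu. Those means put the further Control library below the further Cu library if each is of 3 libraries. NUP37, the most abundant of the 6, had 325 and 249.8 FPKM in the Control pair, against 185 FPKM in Cu 1 and 281 FPKM in Cu 3, where Cu 3 lay between the Control libraries. NUP160, the least abundant, had 17.6 and 15.8 FPKM in the Control pair, against 15.6 FPKM in Cu 1 and 15.4 FPKM in Cu 3, so its groups were separate by very little, at a log2 fold change of -0.10.

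The inner ring, which joins the outer scaffold to the central channel, had 4 of 5 members above 0, and 3 of 5 under either scaling. NUP205 (identifier 100523151, chr18:13674301-13777773), one of its large scaffold proteins, had the highest log2 fold change of the tested members. It had 1.12 and 1.51 FPKM in the Control pair, against 4.05 FPKM in Cu 1 and 2.27 FPKM in Cu 3, a weakly expressed mRNA that was higher in both Cu libraries, with a fold change of 0.82 on the log2 scale (SE 0.39, 95% interval -0.13 to 1.76, adjusted p = 0.708 in limma's test). Without Cu 1 it was 0.50, and by the authors' means, 1.58 FPKM in Control and 2.80 FPKM in Cu, it was 0.56. The further Cu library was then not above the further Control library if each mean is of 3 libraries. NUP35 had 541 and 794 FPKM in Cu 1 and 3, so that Cu 1 lay between the Control libraries and the log2 fold change of 0.42 rested on Cu 3 (0.70 without Cu 1 and 0.15 without Cu 3). NUP35 made up 82.6% to 89.4% of the summed FPKM of the 5 inner ring genes, while NUP188, the scaffold protein related to NUP205, made up 0.470% to 0.601%.

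In the central channel only NUP54 was tested. It had 43.4 and 97.0 FPKM in Cu 1 and 3 beside the 156 and 93.0 FPKM of Control, so Cu 3 lay within the Control range. The log2 fold change was -0.88 (SE 0.48, adjusted p = 0.728 in limma's test). It was -0.31 without Cu 1 and -0.52 by the authors' means, 110 FPKM in Control and 76.9 FPKM in Cu. Here too the further Control library was below the further Cu library if each mean is of 3 libraries. The nuclear basket members NUP153 and NUP50, which reach into the nucleus and help importins let go of cargo, had small differences that turned with the scaling. NUP153 had 7.48 and 7.34 FPKM in the Control pair, against 9.69 FPKM in Cu 1 and 7.93 FPKM in Cu 3, above 0 at a log2 fold change of 0.22 but at -0.07 after quantile normalization. NUP50 had 6.41 and 6.69 FPKM in the Control pair, against 9.19 FPKM in Cu 1 and 5.63 FPKM in Cu 3, on either side of the Control libraries.

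Importins alpha recognise the classical nuclear localisation signal and hand the cargo to importin beta. KPNA7 had 1761 and 1019 FPKM in Cu 1 and 3. Cu 1 lay between the Control libraries and Cu 3 below both, with a fold change of -0.23 on the log2 scale (SE 0.35, 95% interval -1.08 to 0.62, adjusted p = 0.894 in limma's test) that was -0.62 without Cu 1 and 0.16 without Cu 3. KPNA2 had 787 and 629.9 FPKM in Cu 1 and 3, both above the Control libraries, with a fold change of 0.49 on the log2 scale (SE 0.28, 95% interval -0.20 to 1.18, adjusted p = 0.748 in limma's test). It was 0.25 after quantile normalization, where the libraries overlapped.

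Within the importin alpha pool, the share of KPNA7 was lower and that of KPNA2 higher in both Cu libraries than in both Control libraries. KPNA7 made up 69.7% and 72.4% of the summed FPKM of the 7 importins alpha in Control 1 and 2 and 65.6% and 57.7% in Cu 1 and 3. KPNA2 made up 22.5% and 22.8% in Control and 29.3% and 35.7% in Cu 1 and 3. The mean share of KPNA7 was 71.0% ± 1.90 (SD, n = 2) in Control and 61.7% ± 5.59 (SD, n = 2) in Cu, and that of KPNA2 was 22.6% ± 0.199 and 32.5% ± 4.50. The groups did not overlap in either share, and the exact two-sided permutation p was 0.333 for each, the smallest that this design allows. KPNA7 stood at 3.10 and 3.18 times KPNA2 in Control and at 2.24 and 1.62 times in Cu 1 and 3, and the authors' group means, which include a further library each, gave 3.02 and 1.60. These shares and ratios do not change when a library is multiplied by a constant factor, though quantile normalization can change them. They were chosen after the values were seen. KPNA3, the only other importin alpha above 10 FPKM, held 4.46% to 7.52% with overlapping groups, and had 144 and 114 FPKM in the Control pair, against 128 FPKM in Cu 1 and 109 FPKM in Cu 3.

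**Figure D3:**
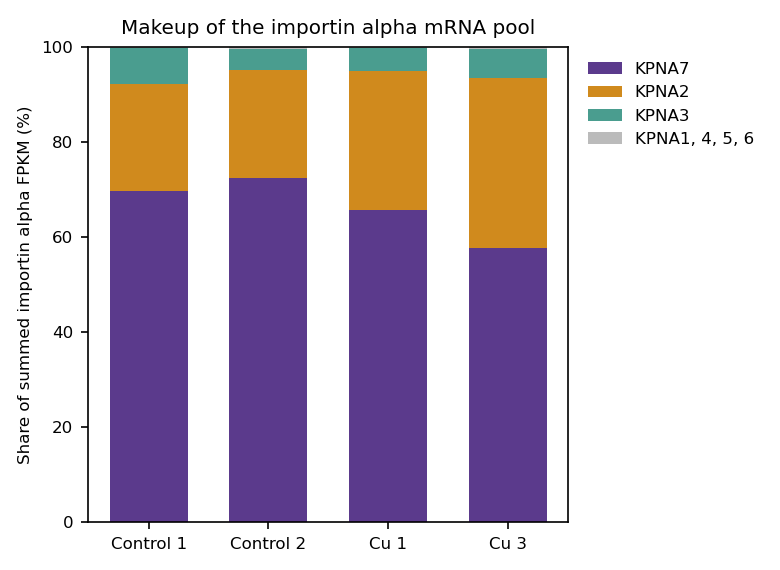
Stacked bars of the share of each importin alpha in the summed FPKM of the 7 importin alpha genes, in percent, for each library. The KPNA7 part is 69.7% and 72.4% in Control 1 and 2 and 65.6% and 57.7% in Cu 1 and 3, and the KPNA2 part is 22.5% and 22.8% against 29.3% and 35.7%.

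KPNA1 and KPNA4, importins alpha of many somatic tissues, were near the limit of 1 FPKM. KPNA4 had 0.85 and 1.31 FPKM in the Control pair, against 1.46 FPKM in Cu 1 and 2.11 FPKM in Cu 3, above the Control libraries at a log2 fold change of 0.42, and KPNA1 had 0.58 and 1.59 FPKM in the Control pair, against 0.19 FPKM in Cu 1 and 1.1 FPKM in Cu 3, with overlap. Neither was near the threshold, with adjusted p of 0.801 and 0.864 in limma's test.

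In the importin beta family, TNPO1 and IPO8 carried most of the mRNA. TNPO1, which imports RNA-binding proteins (identifier 100627484, chr16:49048686-49151926), had 99.99 and 95.6 FPKM in the Control pair, against 29.1 FPKM in Cu 1 and 88.6 FPKM in Cu 3. The low value was that of Cu 1. The log2 fold change of -0.93 (SE 0.53, adjusted p = 0.746 in limma's test) was the most negative of all tested members. It was -0.14 without Cu 1 and -0.31 by the authors' means, 82.0 FPKM in Control and 65.9 FPKM in Cu. The further Control library was then below the further Cu library if each mean is of 3 libraries. IPO8, an importin for SMAD and Argonaute proteins that the rule for named genes did not take, had 40.3 and 29.7 FPKM in the Control pair, against 47.8 FPKM in Cu 1 and 39.5 FPKM in Cu 3. Over the 8 tested members of the family the median log2 fold change was 0.14, with 5 higher and 3 lower. These were 2 and 6 after quantile normalization, and 4 and 4 after median-of-ratios scaling. TNPO1 was the 1 member of the 8 with separate groups, beside 38.8% of all tested genes. TNPO2, the close relative of TNPO1, had 1.36 and 1.3 FPKM in the Control pair, against 2.16 FPKM in Cu 1 and 0.97 FPKM in Cu 3, with Cu 1 above and Cu 3 below both.

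Of the exportins, XPOT, which exports tRNA, and XPO1, which exports proteins with a leucine-rich signal, had separate groups in opposite directions. XPOT had 39.4 and 32.1 FPKM in the Control pair, against 15.4 FPKM in Cu 1 and 26.3 FPKM in Cu 3, giving a fold change of -0.79 on the log2 scale (SE 0.38, adjusted p = 0.709 in limma's test) that was -0.42 without Cu 1. XPO1 had 10.6 and 9.61 FPKM in the Control pair, against 14.9 FPKM in Cu 1 and 13.5 FPKM in Cu 3, giving a fold change of 0.45 on the log2 scale (SE 0.34, adjusted p = 0.784 in limma's test), and by the authors' means, 10.2 and 18.0 FPKM, of 0.77. After quantile normalization the XPO1 libraries overlapped, at 0.24. XPO5, which exports microRNA precursors, was level at 5.18 and 6.85 FPKM in the Control pair, against 7.06 FPKM in Cu 1 and 5.08 FPKM in Cu 3, with a 95% interval of -0.93 to 0.94.

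**Figure D4:**
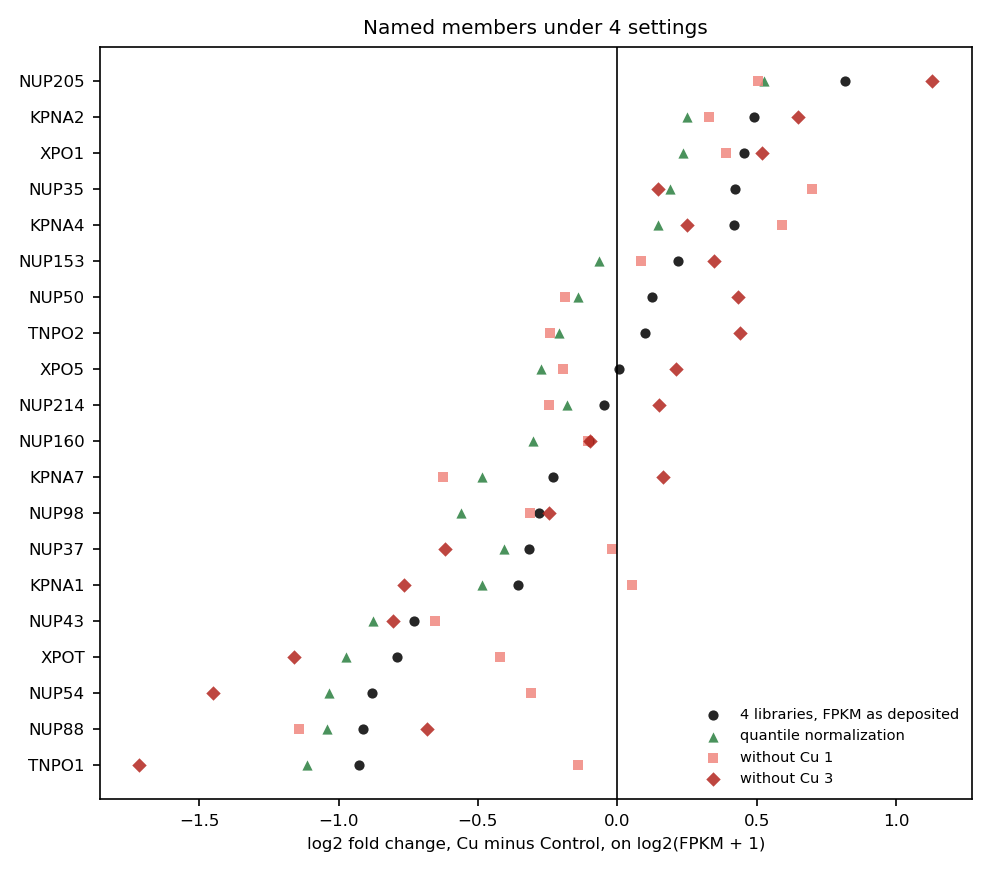
Log2 fold change (Cu minus Control, on log2(FPKM + 1)) of the 20 named members from all 4 libraries as deposited (black), after quantile normalization (green), without Cu 1 (pale red squares) and without Cu 3 (dark red diamonds). TNPO1 moves from -0.93 to -0.14 without Cu 1. NUP88, NUP43, TNPO1, NUP54, XPOT, NUP37, NUP160 and NUP98 stay below 0 under all 4 settings.

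The single Cu libraries were thus far apart for several members. With Cu 3 left out, NUP54, NUP107, TNPO1 and XPOT came under the adjusted limit of 0.05 with limma, where the lone Cu 1 library is assumed to vary like the Control libraries and 1755 of all tested genes passed. With Cu 1 left out no member did, while 186 of all genes passed. NUP88 and NUP43 were below 0 with either Cu library, at -1.14 and -0.66 without Cu 1 and at -0.68 and -0.81 without Cu 3.

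Other genes of the pore and of transport, listed by symbol, were compared in the same fit. Of 15 pore proteins with other symbols 11 had values and 10 were tested, with 7 lower and 3 higher, also under either scaling. NUPL2, a cytoplasmic nucleoporin that holds the mRNA export factor GLE1, had 75.9 and 94.8 FPKM in the Control pair, against 32.1 FPKM in Cu 1 and 48.7 FPKM in Cu 3. It was lower in both Cu libraries, at a fold change of -1.08 on the log2 scale (SE 0.34, unadjusted p = 0.020 and adjusted p = 0.652 in limma's test). By the authors' means of 76.5 and 53.6 FPKM the value was -0.51. As means of 3 libraries, they put the further Control library below the further Cu library. RAE1, the mRNA export factor that binds NUP98 and the most abundant of the list, had 398 and 447 FPKM in the Control pair, against 325 FPKM in Cu 1 and 207 FPKM in Cu 3, again lower in both, at -0.70, or -0.46 by the authors' means. Both Cu libraries were below both Control libraries in 4 of the 10 and above in 1, beside 13.4% and 25.4% of all tested genes. The share below was 16.4% of genes between 10 and 50 FPKM and 23.1% of those at 50 FPKM or more. The median log2 fold change of the 10 was -0.22, against 0.16 for all tested genes.

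The Ran cycle and its carriers had 13 listed genes, 11 of them tested. Of these, 9 were higher and 2 lower (6 and 5 after quantile normalization, 5 and 6 after median-of-ratios scaling). Their median log2 fold change was 0.16, the same as that of all genes. The Cu pair lay above the Control pair in 3 of the 11 (27.3%) and below it in 2 (18.2%). For all tested genes these shares were 25.4% and 13.4%. RANBP17, an exportin-like protein, had 32.9 and 37.2 FPKM in the Control pair, against 18.6 FPKM in Cu 1 and 17.1 FPKM in Cu 3, at a fold change of -0.93 on the log2 scale (SE 0.31, unadjusted p = 0.025 and adjusted p = 0.656 in limma's test). The 2 libraries of each group were alike, and without Cu 1 the value was -0.99. The authors' means of 28.1 FPKM in Control and 22.6 FPKM in Cu, however, gave -0.31. As means of 3 libraries, they put the further Control library below the further Cu library. HIKESHI, the carrier that brings HSP70 into the nucleus, was the most abundant, with 522 and 573 FPKM in the Control pair, against 486 FPKM in Cu 1 and 1178 FPKM in Cu 3, where the Cu libraries lay on either side. RAN itself, looked up after the values were seen, had 295 and 272 FPKM in the Control pair, against 252 FPKM in Cu 1 and 387 FPKM in Cu 3, likewise on either side.

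Of 18 mRNA export genes 14 were tested, 12 higher and 2 lower (6 and 8 after quantile normalization, 7 and 7 after median-of-ratios scaling). Their median log2 fold change was 0.17. The Cu pair lay above the Control pair in 2 and below it in 1, beside 25.4% and 13.4% of all tested genes. DDX39A, an RNA helicase of mRNA export, had 73.3 and 91.0 FPKM in the Control pair, against 51.4 FPKM in Cu 1 and 36.0 FPKM in Cu 3. The fold change was -0.91 on the log2 scale (SE 0.33, unadjusted p = 0.034 and adjusted p = 0.656 in limma's test). By the authors' means of 71.2 and 49.1 FPKM it was -0.53. As means of 3 libraries, they put the further Control library below the further Cu library. ENY2, a small subunit of the TREX-2 export complex, was the most abundant, with 3619 and 3068 FPKM in the Control pair, against 3256 FPKM in Cu 1 and 3580 FPKM in Cu 3, inside the Control range. Of 11 nuclear envelope and lamina genes 9 were tested, with 7 higher and 2 lower (5 and 4 under either scaling). An unadjusted limma p of 0.05 or less was found for 0 of them, or 1 under either scaling. Of all tested genes, 7.01% were at that limit, 7.56% after quantile normalization and 7.53% after median-of-ratios scaling. Their median log2 fold change was 0.53, against 0.16 for all tested genes. It was 0.27 after quantile normalization, 0.36 after median-of-ratios scaling and 0.12 without Cu 1. The Cu pair lay above the Control pair in 3 of the 9 and below it in 1, beside the same 25.4% and 13.4%. BANF1, which binds DNA to the envelope as it forms again, was the most abundant, with 643 and 755 FPKM in the Control pair, against 764 FPKM in Cu 1 and 692 FPKM in Cu 3. Over the 4 lists, 0 genes were higher and 3 lower at an unadjusted p of 0.05 or less, beside the 5.58% and 1.43% of all tested genes.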

How the data were processed

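Per the paper's methods, the authors cleaned the reads (SOAPnuke), aligned them to the genome (HISAT2) and to coding genes (Bowtie2), and estimated expression with RSEM. The submitters' processing notes name TopHat2 2.0.13, Cufflinks 2.2.1 and the build Sscrofa11.1, so the tool behind the values is uncertain. The values the authors deposited are FPKM with 2 decimals for 16050 of 30684 rows, beside the authors' mean FPKM of each group. The methods describe 3 sets per group, and the third set of each was not analysed here. Depth is unknown, and no interval that needs it is given.

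Genes that reached 1 FPKM in 2 or more libraries (8541) were tested on log2(FPKM + 1) by limma 3.58.1 under R 4.3.3 (variance trend, two-sided, Benjamini-Hochberg over all tested genes, limit 0.05). The paper's count-based test could not be used on FPKM. The fit was tested on simulated data. Fold changes of weakly expressed genes are understated by the added 1. Groups follow the labels, whose direction is in doubt for the genes the study checked by RT-PCR (given in the report). Named genes were KPNA7, the most and least abundant tested member of each role, members at an unadjusted p of 0.05 or less, and the 5 largest and 5 smallest fold changes. In the other lists they were the most abundant gene and genes at an unadjusted p of 0.05 or less. Members and lists were chosen with earlier results of these data known. All 45 identifiers matched the RefSeq table of Sscrofa11.1, which gave the positions of whole genes. Alternatives were another low-value filter, no filter, a pseudocount of 0.1, quantile normalization, median-of-ratios scaling, no variance trend, the authors' means and leaving out each library.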

Additional observations from a re-analysis of the deposited data

How the results depend on the processing

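No paired analysis was possible because the groups share only replicate number 1. Genes called by limma at the adjusted limit of 0.05 numbered 0 with all 4 libraries under each of the 6 other settings (557 to 826 genes at an unadjusted p of 0.05 or less) and between 0 and 1755 when a library was dropped, where a group is left with 1 library. The members' median log2 fold change of -0.02 was -0.23 after quantile normalization and -0.19 after median-of-ratios scaling, and -0.13 to 0.16 with each library left out. The number of members at an unadjusted p of 0.05 or less, 1 in the report, was 2 without a filter and under both scalings, 0 without the variance trend, and 0 to 11 with a library left out (1.49% to 34.6% of all genes). Members with separate groups numbered 11, 14 under either scaling (39.4% and 39.0% of all genes), and 16 to 30 with a library left out (58.7% to 83.5% of all genes). After quantile normalization the sign turned for NUP153 (-0.066), NUP50 (-0.14), TNPO2 (-0.21) and XPO5 (-0.27), and after median-of-ratios scaling for NUP50 (-0.036), TNPO2 (-0.019) and XPO5 (-0.15). By the authors' means NUP214 was at 0.011, and values moved toward 0 by over 1.5 times for NUP88, NUP54, TNPO1, RANBP17, NUPL2, RAE1 and DDX39A, among others. With each library left out, values crossed 0 for KPNA1 (-0.77 to 0.054), KPNA7 (-0.62 to 0.16), NUP214 (-0.25 to 0.15), NUP50 (-0.19 to 0.43), NUP98 (-0.56 to 0.0034), TNPO2 (-0.24 to 0.44) and XPO5 (-0.20 to 0.21). The other named members kept their sign under every setting. The cause of these shifts was not tested.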
